A study of Caenorhabditis elegans with 2 samples.

Results

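The NuRD and MEC complex genes are the 7 genes let-418, chd-3, mep-1, hda-1, lin-40, egl-27 and dcp-66, which were listed by name and not by a measured value, out of 19973 protein-coding genes on the 6 nuclear chromosomes of Caenorhabditis elegans. LIN-13 binding at them was read from chromatin immunoprecipitation and sequencing (ChIP-seq), which recovers the DNA bound by a protein. Both samples were embryos of mixed stage, taken as whole animals of pooled sex from strain OP51, with genotype unc-119(ed3) III and the transgene wgIs51, which carries lin-13 joined to eGFP. The 2 biological replicates formed 1 group that shared every allele, so replicates could be compared with each other but not with another condition. The labels name lin-13 in the antibody field and eGFP-lin-13 as the target, so whether untagged LIN-13 was also recovered is not known. A library from worms without the tag was not analysed here.

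NuRD is a conserved complex that joins an ATP-dependent nucleosome remodeller of the Mi-2 type to a histone deacetylase, and it is best known for repressing transcription. In C. elegans, LET-418 is the Mi-2 protein that acts in NuRD and also, with the zinc finger protein MEP-1, in the smaller MEC complex, which keeps germline genes silent in somatic cells. Both LET-418 and the targeted protein LIN-13, a zinc finger protein, belong genetically to the synMuv genes that restrain vulval cell fates.

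For each gene, every region was taken whose summit lay in the gene body or within 1000 bp of it, in 4 lists of ranked regions: 1 for each replicate, 1 for both replicates pooled, and the authors' final set. The final set was made with the irreproducible discovery rate (IDR), which weighs how well ranks recur between replicates, and it equals the top ranks of the pooled list. The replicate and pooled lists hold 30000 regions each and reach into background, so a region in them is described by its rank, where 1 is the highest signal. The signal is the peak caller's own value, on a scale that differs between lists. No list holds read counts, so the depth of each sample is unknown, and the text gives counts and ranks with no test.

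The IDR set held a LIN-13 peak at 1 of the 7 genes, mep-1, and none at let-418, chd-3, hda-1, lin-40, egl-27 or dcp-66. The mep-1 summit had a partner within 100 bp in replicate 1 and not in replicate 2. Over all protein-coding genes 10.7% had an IDR peak in the gene body or within 1000 bp. In the promoter window, from 1000 bp upstream to 200 bp downstream of any annotated transcription start site (TSS), the peak at mep-1 was again the one peak at the 7 genes, against 8.15% of all protein-coding genes. With 7 genes, 1 peak is near what these shares give, and so few genes cannot place the group above, below or level with others. The gene-body window also grows with gene length. The median length was 6056 bp for the 7 genes and 2027 bp for all protein-coding genes.

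**Figure D1:**
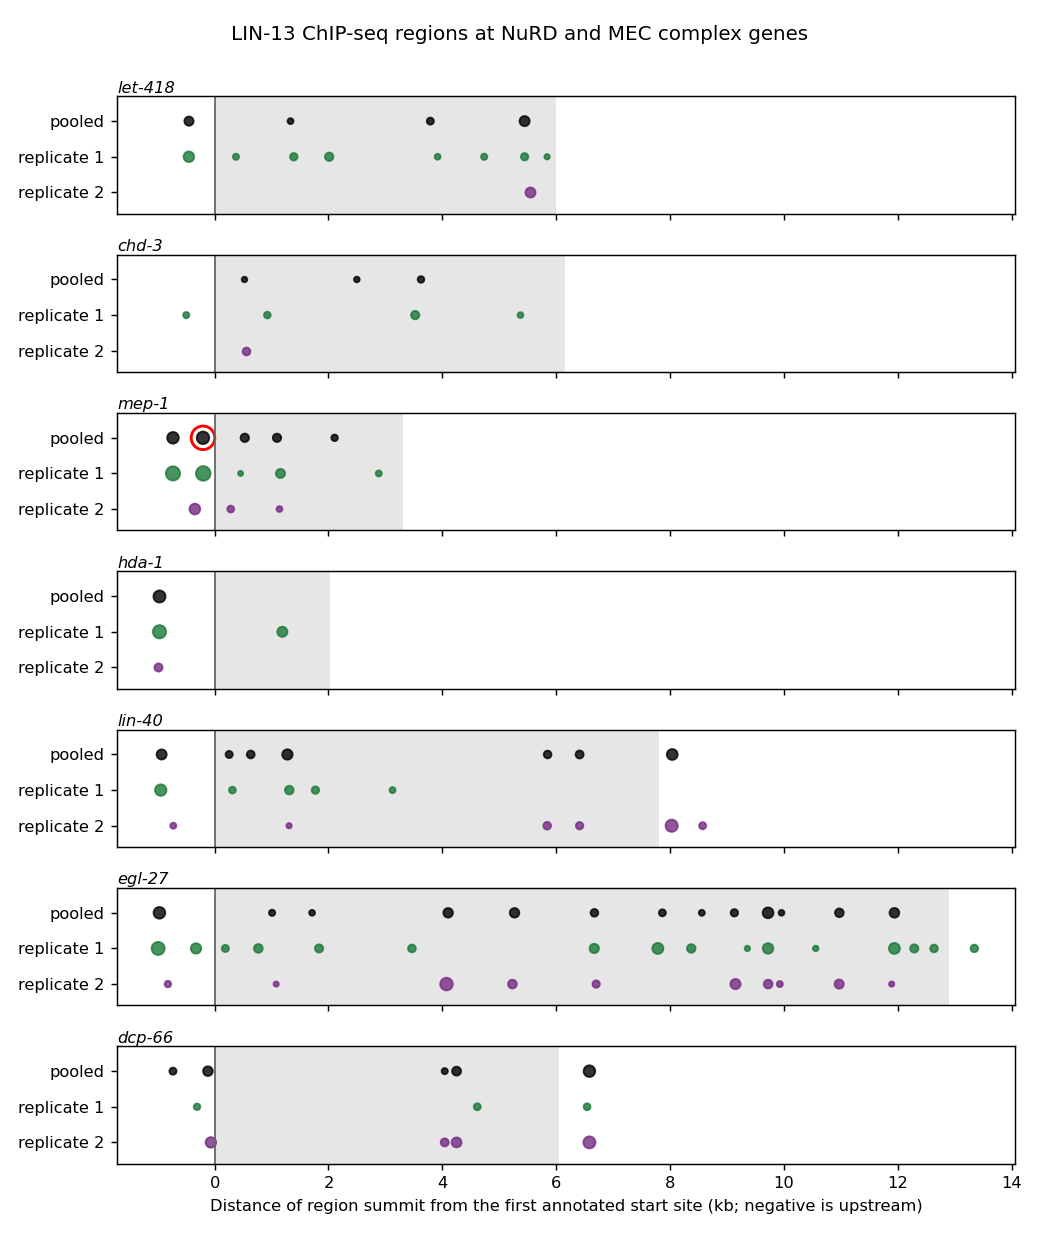
Position of every region at the 7 genes, as distance in kb from the first annotated start site (grey band, gene body), with 1 row for the pooled list and 1 for each replicate. Larger points have better ranks, and the red ring marks the single IDR peak, 204 bp upstream of mep-1.

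The mep-1 gene (WBGene00003218, chrIV:11524642-11527954, plus strand) encodes a Krüppel-type zinc finger protein that binds LET-418. Its IDR peak at chrIV:11524296-11524579 had the summit 204 bp upstream of the single annotated TSS, and no other coding TSS was closer. The summit lay inside exons of the noncoding RNA genes M04B2.11 and M04B2.13, which overlap the promoter. The signal was 35.81 at rank 1332, close to the lowest signal in the IDR set, 32.82. The median of the IDR set was 49.53, and 86.8% of its peaks had a higher signal.

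The replicates placed this binding differently. In replicate 1 the strongest region at mep-1 ranked 358, with its summit 199 bp upstream of the TSS, and a separate region 731 bp upstream ranked 470. In replicate 2 the strongest region ranked 3560, and its summit was 347 bp upstream. The strongest summits of the 2 replicates were 148 bp apart, although the regions shared 120 bases. So the IDR peak had a summit within 100 bp in replicate 1 and none that near in replicate 2. The pooled list also held the region 731 bp upstream, with a signal of 25.47 at rank 2245, which is below the IDR set and which replicate 2 lacked within 100 bp. Inside the mep-1 gene the pooled list held 3 more regions, and none ranked better than 10250.

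The sequences under 4 upstream regions, at mep-1, hda-1 and egl-27, are shown. They have the best pooled ranks of any region at these genes within the 1000 bp limit. The strongest pooled region lay downstream of the gene at lin-40 and dcp-66, and in the gene body at let-418 and chd-3. The let-418 promoter region is shown beside them, at a lower rank than the other 4. Only the strongest mep-1 region is in the IDR set. The upstream regions of lin-40 and dcp-66 ranked better than that of let-418 and are not shown. All are from the plus strand of WBcel235, which is ce11. Capitals mark an E2F-like word (TTCCCGC or TTCGCGC or TTGCCGC or TTGGCGC) or the word GAGAGA, on either strand; by their letters the 2 kinds cannot overlap, and longer GA repeats count each overlapping copy.

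mep-1, strongest region (chrIV:11524296-11524579): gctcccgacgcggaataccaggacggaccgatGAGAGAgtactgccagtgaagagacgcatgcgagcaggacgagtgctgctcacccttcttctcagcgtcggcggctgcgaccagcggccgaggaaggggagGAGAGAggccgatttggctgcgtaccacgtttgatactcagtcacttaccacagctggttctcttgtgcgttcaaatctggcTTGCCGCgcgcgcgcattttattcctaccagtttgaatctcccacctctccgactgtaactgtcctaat
mep-1, next region (chrIV:11523769-11524052): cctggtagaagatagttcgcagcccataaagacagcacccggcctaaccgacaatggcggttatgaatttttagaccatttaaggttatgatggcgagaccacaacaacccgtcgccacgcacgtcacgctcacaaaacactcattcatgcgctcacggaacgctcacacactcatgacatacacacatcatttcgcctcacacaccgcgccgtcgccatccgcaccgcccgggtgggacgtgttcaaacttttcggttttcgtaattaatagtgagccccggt
hda-1 and ril-1, shared upstream region (chrV:14524277-14524560): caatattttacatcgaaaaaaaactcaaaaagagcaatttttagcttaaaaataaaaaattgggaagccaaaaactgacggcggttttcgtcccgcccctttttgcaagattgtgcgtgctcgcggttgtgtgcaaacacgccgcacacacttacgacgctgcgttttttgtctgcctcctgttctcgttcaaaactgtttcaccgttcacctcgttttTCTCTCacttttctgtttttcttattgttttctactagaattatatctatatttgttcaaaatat
egl-27, upstream region (chrII:6833897-6834180): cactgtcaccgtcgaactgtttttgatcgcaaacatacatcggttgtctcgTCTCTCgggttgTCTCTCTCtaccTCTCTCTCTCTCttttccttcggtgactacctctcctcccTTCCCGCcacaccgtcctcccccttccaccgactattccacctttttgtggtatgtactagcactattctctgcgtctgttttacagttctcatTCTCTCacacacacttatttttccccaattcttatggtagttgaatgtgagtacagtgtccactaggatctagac
let-418, upstream region (chrV:5826241-5826524): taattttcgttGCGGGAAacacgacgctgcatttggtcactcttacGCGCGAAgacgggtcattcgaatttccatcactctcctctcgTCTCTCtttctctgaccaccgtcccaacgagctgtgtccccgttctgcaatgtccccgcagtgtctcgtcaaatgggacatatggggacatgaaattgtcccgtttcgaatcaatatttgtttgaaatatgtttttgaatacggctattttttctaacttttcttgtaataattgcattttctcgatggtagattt

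The strongest mep-1 region held 1 E2F-like word and 2 GAGAGA words, and the next mep-1 region held neither. The region upstream of egl-27 held 1 E2F-like word and 8 GAGAGA words, all read from TC repeats on the strand shown, and the hda-1 region held 1 GAGAGA word. The let-418 region, at rank 7371, held 2 E2F-like words and 1 GAGAGA word. The upstream regions of lin-40 (rank 4978) and dcp-66 (rank 5882) held no E2F-like word, and 6 and 3 GAGAGA words. Of all pooled regions of the same width, 284 bp, 14.5% held an E2F-like word and 21.2% a GAGAGA word, against 22.7% and 42.7% of IDR peaks of that width. Within 100 bp of the summit, 6 of the 38 pooled regions at the 7 genes had an E2F-like word (15.8%) and 13 had GAGAGA (34.2%). For all 30000 pooled regions these shares were 11.3% and 16.5%, and for IDR peaks 20.3% and 37.0%. Median GC content in that window was 43.0% at the 7 genes, 40.8% in all pooled regions and 44.8% in IDR peaks. The strongest region at mep-1 had 58.7%.

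The 2 Mi-2 remodeller genes had the lowest signals of the group in the pooled list. The let-418 gene (WBGene00002637, chrV:5826833-5832831, plus strand) encodes the Mi-2 ATPase of both complexes. Its best region in the pooled list ranked 4928, with a signal of 16.80, and lay in a coding exon 5445 bp downstream of the TSS. The upstream region, 450 bp from the TSS in intergenic sequence, ranked 7371 with a signal of 14.21. That site ranked 3811 in replicate 1, whereas replicate 2 had no region in the promoter window and a single region at the gene, at rank 5010 near the 3′ end. Its paralog chd-3 (WBGene00000482, chrX:12846439-12852601, minus strand) encodes the second worm Mi-2 ATPase. No region of the pooled list lay in the chd-3 promoter window, and the 3 in the gene ranked 19638, 25585 and 26767, all in coding exons. The best chd-3 region ranked 10586 in replicate 1 and 13012 in replicate 2, at coding-exon sites 3523 bp and 555 bp downstream of the TSS. Of the 7 genes, chd-3 had the lowest best rank in the pooled list and in replicate 2, while dcp-66 had it in replicate 1, at 17690. In the chd-3 promoter window replicate 1 had a region at rank 22362 and replicate 2 had none. Just beyond the limit, replicate 1 had a region at rank 2274, 1050 bp upstream of chd-3, where the pooled list had rank 29594. Farther out, 1753 bp upstream of chd-3, the pooled list had a region at rank 5114 with a signal of 16.51. Replicate 1 had that site at rank 4139, and replicate 2 had no summit within 100 bp of it.

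The deacetylase gene hda-1 came next after mep-1. It encodes the class I histone deacetylase of the complex (WBGene00001834, chrV:14525389-14527411, plus strand), and it had 1 region in the pooled list, at chrV:14524277-14524560, with a signal of 30.29 at rank 1734. The summit was 970 bp upstream of hda-1 but 290 bp upstream of ril-1, a gene on the opposite strand whose TSS is the nearest, and it lay in an exon of the noncoding RNA gene C53A5.18. The site had summits within 100 bp in both replicates, at rank 861 in replicate 1 and rank 11490 in replicate 2. Both replicates therefore had the site, at very different ranks.

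The MTA-type subunits, which link the deacetylase to the remodeller, are encoded by lin-40 and egl-27. The egl-27 gene (WBGene00001194, chrII:6835008-6847908, plus strand) is the longest of the group at 12901 bp, with 14 distinct annotated TSSs and 13 pooled regions. Its best pooled region was intergenic, 969 bp upstream of the first TSS, with a signal of 25.95 at rank 2176. Replicate 1 had this upstream site as its best, at rank 984. Replicate 2 had its best in an intron at rank 1272, at a site that ranked 6272 in the pooled list and that replicate 1 lacked within 100 bp. So both replicates had a top region at egl-27, 992 bp upstream of the first TSS in replicate 1 and 4073 bp downstream of it in replicate 2, and neither site entered the IDR set. The next pooled region, at rank 3469 with a signal of 19.75, lay in an intron 631 bp upstream of an internal TSS. Its summit was found in both replicates, at rank 3953 in replicate 1 and rank 8893 in replicate 2. A coding-exon region near the 3′ end, at pooled rank 5826, was also found in both, at ranks 3219 and 28474.

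The other MTA gene, lin-40 (WBGene00003025, chrV:3704988-3712796, plus strand), had 7 pooled regions. The best had a signal of 19.92 at rank 3410 and lay past the 3′ end of lin-40, in a 3′ UTR of the convergent gene nrsn-1. It ranked 1628 in replicate 2, and replicate 1 had no summit within 100 bp of it. In the genome sequence, 65.2% of the bases within 100 bp of its summit are masked as repeats, against a median of 24.4% over all pooled regions. The upstream lin-40 region, 930 bp from the first TSS in intergenic sequence, had a signal of 16.72 at rank 4978. Replicate 1 had that site as its best region at the gene, at rank 2486, and replicate 2 lacked it within 100 bp. The lin-40 site found in both replicates was in a coding exon 1279 bp downstream of the first TSS, at rank 4310 in the pooled list, 9210 in replicate 1 and 28207 in replicate 2.

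The dcp-66 gene (WBGene00000938, chrI:7536104-7542159, minus strand) encodes the p66 subunit. Its best region by the 1000 bp limit was past the 3′ end, in an intron of C26C6.4, with a signal of 25.43 at rank 2248. That region ranked 1765 in replicate 2 and 18302 in replicate 1. The promoter region 117 bp upstream of the nearest dcp-66 TSS had a signal of 15.55 at rank 5882. Just beyond the limit, 1429 bp upstream of the gene, lay an IDR peak with a signal of 52.55 at rank 679, stronger than the mep-1 peak, and the nearest coding TSS to it was that of dcp-66. It ranked 195 in replicate 1 and had a summit within 100 bp at rank 6636 in replicate 2. The regions nearest to the limit from inside were those 970 bp upstream of hda-1, 969 bp upstream of egl-27 and 930 bp upstream of lin-40. The dcp-66 peak was the one IDR peak between 1000 and 2000 bp from any of the 7 genes.

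**Figure D2:**
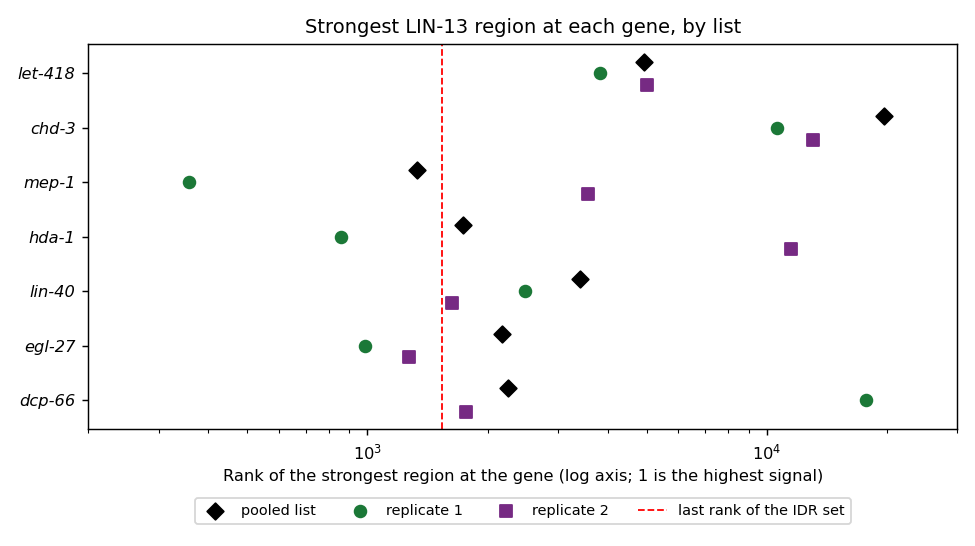
Rank of the strongest region at each gene on a log axis, in the pooled list and in each replicate, for regions in the gene body or within 1000 bp. Left of the dashed line lie mep-1, hda-1 and egl-27 in replicate 1, egl-27 in replicate 2, and mep-1 in the pooled list.

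Taking from each replicate as many top regions as the IDR set holds gave different genes. Replicate 1 alone had a top region at 3 of the 7 genes (mep-1, hda-1 and egl-27), against 10.4% of all protein-coding genes. Replicate 2 alone had one at 1 of the 7 (egl-27), against 10.1%. The best rank was better in replicate 1 at let-418, chd-3, mep-1, hda-1 and egl-27, and better in replicate 2 at lin-40 and dcp-66. The strongest region lay upstream of the gene for 5 of the 7 genes in replicate 1 (let-418, mep-1, hda-1, lin-40 and egl-27) and for 2 of the 7 in replicate 2 (mep-1 and hda-1). In the pooled list it lay upstream for 3 of the 7 (mep-1, hda-1 and egl-27). Over all protein-coding genes with a region, this share was 35.2% in replicate 1, 33.1% in replicate 2 and 36.2% in the pooled list. With 1 library each, the cause of the differences between replicates was not tested.

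All 7 genes had at least 1 region in the pooled list, against 66.3% of protein-coding genes. The median length was 6056 bp for the 7 genes and 2027 bp for all protein-coding genes, with hda-1 the shortest of the 7 at 2023 bp. Per kb of gene and flank, the pooled list held 0.652 regions over the 7 genes and 0.325 over all protein-coding genes, with hda-1 lowest at 0.249 and mep-1 highest at 0.941. The median rank of these 38 regions was 11213.5, and 21 lay beyond rank 10000. The whole list holds 30000 regions, so most of it also lies beyond rank 10000. By annotation of the summit, 19 were in coding exons, 10 in introns, 5 intergenic, 3 in exons of noncoding RNAs and 1 in a 3′ UTR. Of the 38, 17 had a summit within 100 bp in replicate 1, 21 in replicate 2 and 8 in both. The same counts over all pooled regions are not given here, so these are not read as high or low. Of those 8, 3 were at egl-27 and 1 each at let-418, mep-1, hda-1, lin-40 and dcp-66, while chd-3 had none. The mep-1 site among them was a coding-exon region at pooled rank 10421, not the IDR peak.

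Against all promoters, the 7 genes ran from well inside the upper ranks to no region at all. The best promoter region of mep-1 was matched or exceeded by 7.20% of protein-coding genes, that of hda-1 by 8.90%, egl-27 by 10.55%, lin-40 by 16.08%, dcp-66 by 17.47% and let-418 by 19.57%, while chd-3 had none in the pooled list. The median best rank was 3577 over the 6 genes with a promoter region and 8265 over all protein-coding genes with one. These standings moved with the replicate. For mep-1 the share of genes as good was 2.36% in replicate 1 and 12.01% in replicate 2, and for hda-1 it was 5.01% and 22.96%. For egl-27 it was 5.58% in replicate 1 and 19.73% in replicate 2, and for lin-40 it was 10.91% and 34.84%. The order of the replicates was the other way at dcp-66, with 33.83% in replicate 1 and 12.85% in replicate 2. At let-418 the share was 13.86% and at chd-3 35.99% in replicate 1, and in replicate 2 neither had a promoter region. The 5 best promoter ranks in replicate 2 were 3560 for mep-1, 3962 for dcp-66, 8808 for egl-27, 11490 for hda-1 and 23322 for lin-40. The egl-27 window is wider than the others, since each of its TSSs adds to it.

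**Figure D3:**
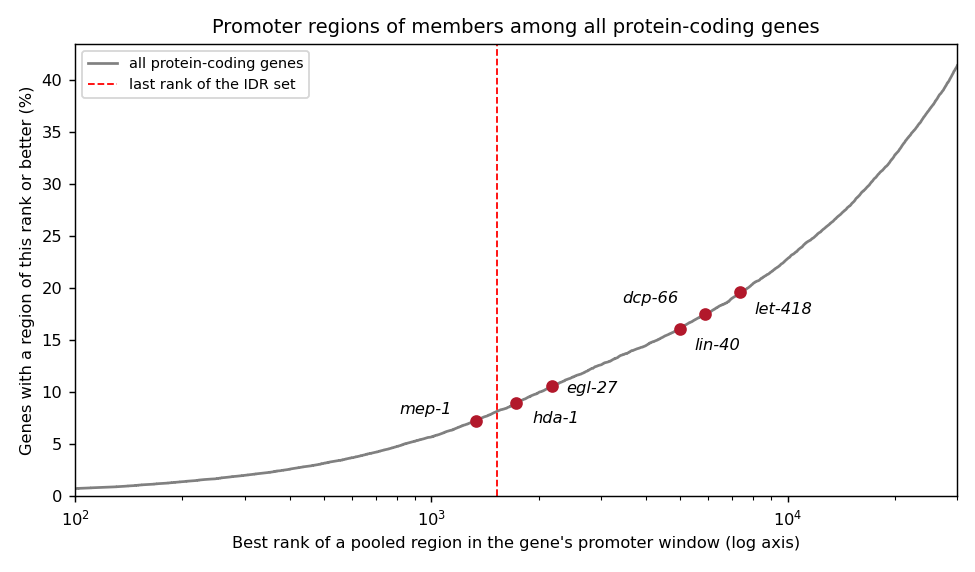
Share of all protein-coding genes (y axis, percent) whose best pooled promoter region reaches a given rank (x axis, log scale), with 6 of the 7 genes as red points; chd-3 had no pooled promoter region. Left of the dashed line, the end of the IDR set, lies mep-1 alone.

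Related chromatin genes outside the 7 carried promoter peaks in some cases. Of 29 genes in 5 lists of other complex subunits and partners, 10 had an IDR summit in the promoter window, beside the 8.15% of all protein-coding genes, a description with no test. The 5 lists were drawn up with earlier results of these data known, so this count is not read as an enrichment. The RbAp subunit gene lin-53, whose histone-binding protein serves both NuRD and the DREAM complex, had a far stronger peak than mep-1, with a signal of 96.87 at rank 167, 219 bp upstream of its TSS, and ranks of 255 and 157 in replicates 1 and 2. Its paralog rba-1 had no region in its promoter window in the pooled list or in either replicate. Of 7 other histone deacetylase genes, 1 had a promoter peak, hda-6 (signal 63.22, rank 457). Of the 7 SNF2-family remodeller genes that matched the annotation, 4 had one. These were chd-7 (signal 52.97), btf-1 (40.82), the ISWI ATPase gene isw-1 (34.01) and swsn-4 (44.26), the SWI/SNF ATPase gene, whose peak lay closer to the TSS of spo-11. The chd-7 summit had no partner within 100 bp in replicate 1 and ranked 787 in replicate 2. Elsewhere in the chd-7 promoter window, replicate 1 had a region at rank 559. The swsn-4 summit ranked 1085 in replicate 1 and had no partner within 100 bp in replicate 2. Elsewhere in the swsn-4 promoter window, replicate 2 had a region at rank 2613. Both replicates had the btf-1 summit, at ranks 3021 and 928 in replicates 1 and 2, and the isw-1 summit, at ranks 5813 and 760.

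Of 8 genes listed for other corepressor complexes, 3 had a promoter peak. They were lsd-1, a histone demethylase gene of the LSD1 family, with a signal of 33.62, rcor-1, a CoREST-type gene, with 37.95, and athp-1, with 48.02. The peak of athp-1 ranked 304 in replicate 2 and 29939 in replicate 1. The best region of replicate 1 in the athp-1 promoter window was at another site, at rank 11073. Of 4 genes whose proteins are known partners of MEP-1, 1 had a promoter peak, the splicing helicase gene mog-4 (signal 47.29, rank 828), with ranks of 1142 and 1193 in replicates 1 and 2. At pie-1, whose protein protects germline fate and binds MEP-1, the IDR peak within 1000 bp of the gene lay 261 bp upstream of snr-6 and outside the pie-1 promoter window.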

How the data were processed

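LIN-13 ChIP-seq came from 2 biological replicates of mixed-stage embryos, in 1 group, with replicate numbers from the labels and library fragments of 150 to 350 bp per the labels. The authors deposited narrowPeak lists with an index text that gives each list's build and parent files. By that deposited text, regions were called against a control on each replicate and on both together, and IDR then left 1534 final peaks. Aligner, peak caller, IDR threshold and their versions: not given in the sources used here. Regions were ranked within a list by the signal that the authors deposited in column 7. The −log10 q value that the authors deposited in column 9 entered no result. Summits came from the deposited offsets in column 10. The ce11 lists were used with the Ensembl release 115 annotation and RefSeq genome of WBcel235, which is ce11. The ce10 lists were not used here.

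Coordinates count from 1. Summits within 100 bp were taken as the same site. All annotated transcripts gave TSSs. Of 30 symbols in the lists of related genes, 29 matched. The window counts were tested on simulated data. The 7 genes were listed with earlier results of these data known, as were the related-gene lists. The rule for named genes took all 7, each listed gene with a promoter IDR summit (at most 4 a list), lin-53 and rba-1, and the gene of the nearest coding TSS. The naming of pie-1, C26C6.4, nrsn-1 and the noncoding RNA genes, the dcp-66 peak beyond 1000 bp, and the share of genes with the strongest region upstream were chosen after values were seen. Depth per sample is unknown. Alternatives were other windows, stricter peak sets and each replicate alone. Analyses used Python 3.11.15, pandas 2.3.3 and scipy 1.17.1.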

Additional observations from a re-analysis of the deposited data

How the results depend on the processing

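The single peak at mep-1 depended on the choices made. The number of genes with an IDR summit in the body or within 1000 bp was 1, and it was 0 in the gene body only, 0 in the stronger 50% of IDR peaks, 0 in IDR peaks near a top region of both replicates, and 2 within 2000 bp, where the dcp-66 peak entered. With 1 replicate left out, here and below, the peaks were the top regions of the other replicate, with no IDR step. As many were taken as the IDR set holds. This gave 1 to 3 genes (egl-27 without replicate 1, and mep-1, hda-1 and egl-27 without replicate 2). In the promoter window the count of 1 became 2 with 2000 bp upstream, 2 by the nearest coding TSS alone, 0 in the stronger 50%, 0 near top regions of both replicates, and 0 to 3 with 1 replicate left out. IDR regions at the 7 genes numbered 1 in the main setting, 0 in the body only, 2 within 2000 bp and 0 in the stronger 50%. Top regions numbered 1 to 4 with 1 replicate left out. The mep-1 summit had a partner in both replicates at 200 bp (1 peak) and not at 100 bp or 50 bp (0 peaks).

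The shares of all protein-coding genes moved as windows and peak sets changed: from 10.7% to 1.54% in the body only, 8.84% within 500 bp, 13.7% within 2000 bp, 5.99% in the stronger 50% and 10.1% to 10.4% with 1 replicate left out. The promoter share of 8.15% became 6.72% with 500 bp upstream, 10.3% with 2000 bp, 7.24% by nearest TSS, 4.58% in the stronger 50%, 4.83% near top regions of both replicates, and 7.27% to 7.94% with 1 replicate left out. Of the 29 related genes 10 had a promoter peak, which fell to 3 in the stronger 50% and 3 near top regions of both replicates, and was 7 to 8 with 1 replicate left out. The 38 pooled regions at the 7 genes numbered 28 to 45 under other windows. No paired analysis was possible because there was 1 group. With 2 replicates, no read counts and 7 genes, the lists show where regions rank and not how precisely.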
